A study of Mus musculus with 25 samples.

Results

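Glul, Oat, Slc1a2, Rhbg, Cyp2e1, Cyp1a2, Axin2, Lgr5, Tbx3 and Nkd1 are 10 genes that hepatocytes around the central vein use or that the Wnt pathway switches on there. They were taken by symbol from the 48795 genes listed for each sample, and each symbol matched 1 gene identifier. All 10 passed the filter on low counts, which kept 15625 genes. The 25 RNA sequencing libraries came from male C57BL/6J mice. Nothing on hand says which libraries came from the same animal, so p-values measure the spread between these libraries. Untreated mice, which got no carcinogen, gave liver on the control diet (nonDEN-L-CD, n = 3) or on the western diet (nonDEN-L-WD, n = 4). Mice injected with diethylnitrosamine (DEN), a carcinogen that hepatocytes activate, at 25 mg/kg when 2 weeks old gave 3 groups. Those kept on the control diet gave whole liver (DEN-L-CD, n = 4). Those kept on the western diet gave tumors (DEN-T-WD, n = 6) and, cut from around such tumors, peritumoral liver (DEN-PT-WD, n = 8). Diets began at weaning, and the study's methods give an age at harvest of 36 to 39 weeks. Tumors of control-diet mice were too small to be cut out, so the DEN-L-CD tissue may hold them.

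The liver lobule is zoned along the blood flow. Endothelial cells of the central vein secrete Wnt ligands and R-spondins, which stabilise beta-catenin in the hepatocytes next to them, and beta-catenin with its TCF/LEF partners then turns on the pericentral genes. Glul (glutamine synthetase), Oat (ornithine aminotransferase), Slc1a2 (a glutamate transporter) and Rhbg (an ammonium transporter) serve the capture of ammonia as glutamine. Cyp2e1 and Cyp1a2 are cytochromes that oxidise small xenobiotics. Axin2 and Nkd1 encode inhibitors of the pathway that it induces itself, Lgr5 encodes a receptor for R-spondins, and Tbx3 a transcription factor downstream of beta-catenin. Mouse liver tumors with an activated beta-catenin gene are known for high glutamine synthetase and high Axin2 and Lgr5, while periportal enzymes such as Gls2 and Cyp2f2 are low where the pathway is on. The question asked of the tumors was whether these genes were high, as in tumors with active beta-catenin, or low. In tissue ground whole, fewer cells that express a gene and less RNA per cell cannot be told apart.

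Libraries held 21530083 to 38074411 expected counts, the reads that RSEM assigned to genes. Levels are given as TPM (the share of a library's transcripts that come from a gene, corrected for gene length). Albumin, the hepatocyte product, was the check on tissue: it stood at 21879 TPM or more in every library. RNA of pancreas markers was also present, and the summed TPM of 8 such markers ran from 9.64 to 5422, reaching 500 in 8 libraries spread over all 5 groups. In tumor replicate 5, Alb stood at 21879 TPM against 82845 to 99736 TPM in the other 5 tumors.

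Promoter windows of 300 bases around the transcript start, from RefSeq on GRCm38.p6, were on hand for 7 of the 10 genes: Glul, Oat, Slc1a2, Cyp2e1, Cyp1a2, Axin2 and Nkd1. They were searched on both strands for 4 strings of letters, CTTTGAA, then CTTTGAT, then CTTTGTA and finally CTTTGTT, the forms that TCF/LEF factors are known to prefer. Each string of 7 letters can overlap no other on the list at the same position. Slc1a2, Cyp2e1 and Cyp1a2 each held 1 match, against a share of 16.88% of all 32851 promoter windows, and Glul, Oat, Axin2 and Nkd1 held none. Below are the 3 windows with a match and that of Axin2, the gene most used to report on the pathway, without one. They run 5′ to 3′ on the gene's strand up to the first base of the window that GENCODE M21 assigns to any exon, with the match in capitals. The RefSeq starts of Slc1a2 and Nkd1 lie far inside the span of the gene in GENCODE M21, so the Slc1a2 window belongs to an internal start. A match is only a letter pattern, and its absence from a window says nothing of more distant enhancers.
Cyp2e1, chr7:140763569-140763738, plus strand: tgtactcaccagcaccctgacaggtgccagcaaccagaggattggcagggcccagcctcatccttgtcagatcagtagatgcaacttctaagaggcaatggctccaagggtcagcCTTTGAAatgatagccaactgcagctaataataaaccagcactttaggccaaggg
Slc1a2, chr2:102706188-102706355, plus strand: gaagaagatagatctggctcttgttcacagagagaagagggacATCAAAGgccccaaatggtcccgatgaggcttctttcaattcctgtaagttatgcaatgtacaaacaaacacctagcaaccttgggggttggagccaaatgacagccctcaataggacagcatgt
Cyp1a2, chr9:57683704-57683905, minus strand: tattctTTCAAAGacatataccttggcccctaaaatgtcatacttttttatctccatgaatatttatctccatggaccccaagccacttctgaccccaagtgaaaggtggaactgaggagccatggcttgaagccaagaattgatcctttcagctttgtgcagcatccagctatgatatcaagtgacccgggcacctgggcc
Axin2, chr11:108920099-108920348, plus strand: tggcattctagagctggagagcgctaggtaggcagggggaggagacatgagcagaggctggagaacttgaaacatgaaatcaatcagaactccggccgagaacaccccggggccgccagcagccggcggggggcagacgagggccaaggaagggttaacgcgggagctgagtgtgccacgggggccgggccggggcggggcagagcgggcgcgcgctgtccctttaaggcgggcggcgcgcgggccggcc
The match of Cyp2e1, CTTTGAA, starts 135 bases before the transcript start. That of Slc1a2 reads ATCAAAG on the gene's strand and starts 207 bases before, and that of Cyp1a2 reads TTCAAAG and starts 244 bases before.

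All 10 genes were lower in tumors than in peritumoral liver at an adjusted p of at most 0.05, and 8 of them also by a log2 fold change of at least 1, the size needed for a call. Over all tested genes, 3.09% were called lower in this comparison and 18.1% were lower by adjusted p alone. The median log2 fold change was -1.32 over the 10 genes and 0.01 over all tested genes. The fit was edgeR's quasi-likelihood test with Benjamini-Hochberg adjustment over all tested genes, across the 5 groups. None of the 60 tumor values lay above the median of peritumoral liver for its gene, and 56 lay below the lowest peritumoral library. Tumor replicates 1, 4 and 6 were below it for all 10 genes. The 4 values that were not came from replicate 2 (Rhbg), replicate 3 (Axin2) and replicate 5 (Rhbg and Cyp1a2).

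**Figure D1:**
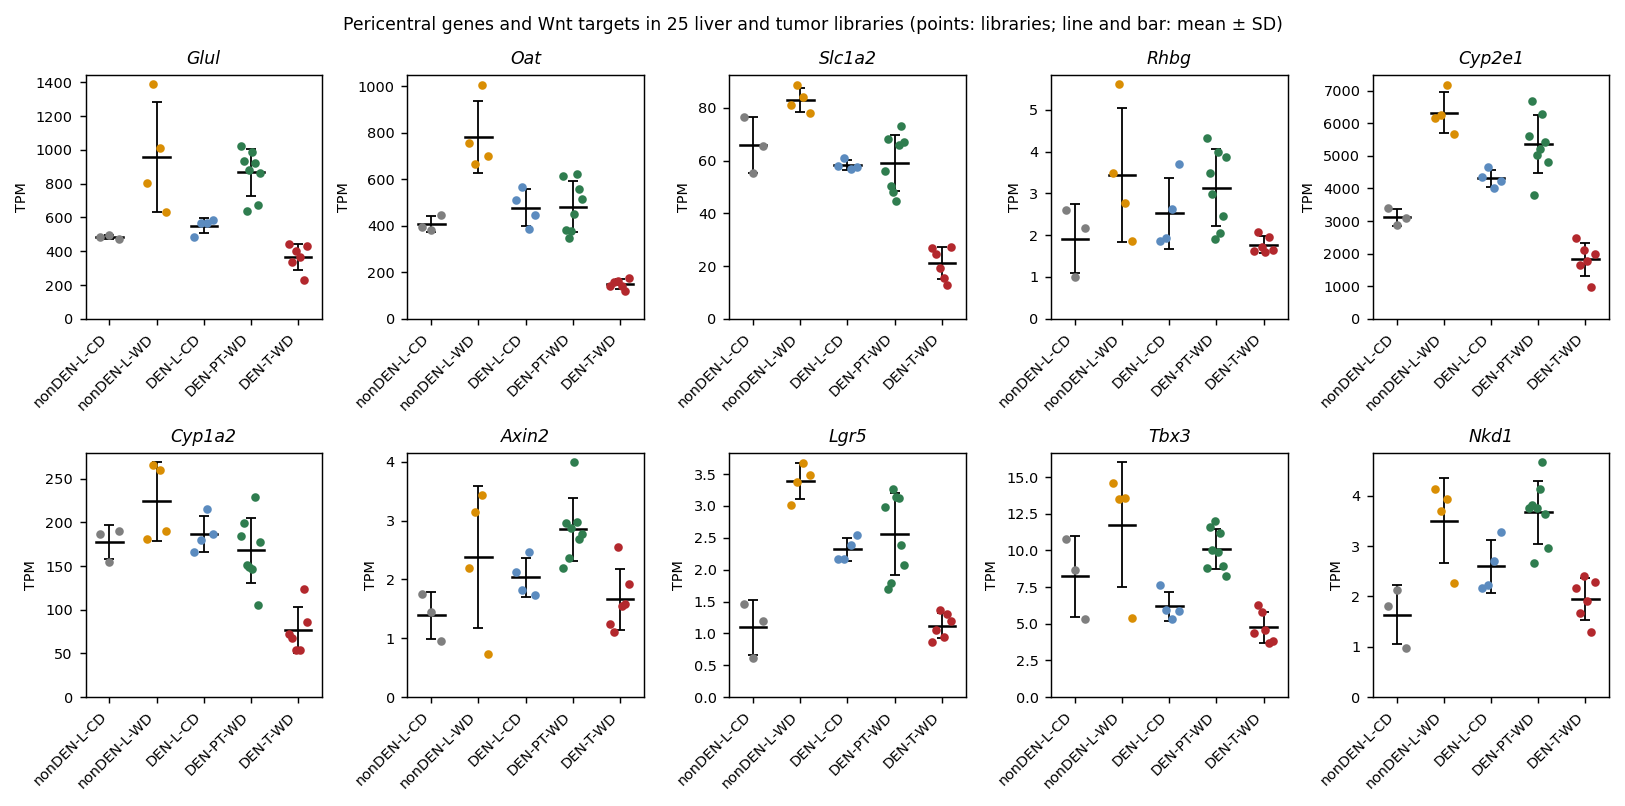
Level of each of the 10 genes in TPM (y axis, from 0) in the 25 libraries by group, with each library as a point and the mean ± SD as a line and bar. Tumors have the lowest group mean for 7 of the genes, while nonDEN-L-CD has the lowest for Axin2, Lgr5 and Nkd1.

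Glul, at chr1:153899944-153909723 on the plus strand, is the gene most confined to the last hepatocytes around the central vein. In peritumoral liver its level ran from 639 to 1026 TPM, with a median of 902 TPM, and in tumors from 230.5 to 445 TPM, with a median of 382 TPM. Every tumor was thus below every peritumoral library. The fitted log2 fold change was -1.34 ± 0.14 (SE), a 2.54-fold lower level, with an adjusted p of 4.1e-07. In untreated mice on the control diet the 3 libraries stood at 482, 496 and 474 TPM, and in those on the western diet the 4 stood at 806, 1389, 1013 and 631 TPM. The libraries of DEN-L-CD stood at 483, 567, 569 and 585 TPM. In TPM, both western-diet liver groups therefore lay above both control-diet groups without overlap, and tumors lay below the lowest library of any liver group. By edgeR, though, peritumoral liver was above DEN-L-CD by a log2 fold change of 0.35 ± 0.16, which missed the threshold (adjusted p = 0.15).

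Oat, at chr7:132557478-132576398 on the minus strand, fell by more than Glul. Its level was 346 to 621 TPM in peritumoral liver (median 482) and 118 to 176 TPM in tumors (median 149). The log2 fold change was -1.82 ± 0.16 with an adjusted p of 3.9e-08, and no tumor reached the lowest liver library of any group. Untreated mice gave 396, 383 and 447 TPM on the control diet and 754, 666, 1005 and 701 TPM on the western diet, again without overlap. DEN-L-CD liver gave 508, 568.0, 386 and 446 TPM. Peritumoral liver did not share the high level of nonDEN-L-WD liver: it was lower by a log2 fold change of -0.93 ± 0.16 (adjusted p = 0.0017), and the highest peritumoral library was below the lowest of nonDEN-L-WD.

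Slc1a2, at chr2:102658659-102790784 on the plus strand, stood at 44.6 to 73.1 TPM in peritumoral liver (median 60.9) and at 12.9 to 27.4 TPM in tumors (median 21.9). The groups did not overlap, and the log2 fold change was -1.63 ± 0.13 with an adjusted p of 2.2e-08. Diet moved this transporter less than Oat or Glul. The libraries of nonDEN-L-CD gave 76.6, 55.3 and 65.6 TPM and those of nonDEN-L-WD 81.1, 88.8, 84.0 and 78.0 TPM, with a log2 fold change of 0.34 ± 0.18 that missed the threshold (adjusted p = 0.19). DEN-L-CD liver gave 57.9, 61.0, 56.9 and 57.4 TPM.

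Rhbg, at chr3:88242874-88254709 on the minus strand, was scarce, with 34.8 to 206 expected counts in a library. Its values are uncertain because 60.4% of its stretches of 50 bases also occur in transcripts of the overlapping gene Gm38392 on the same strand. Peritumoral liver ran from 1.90 to 4.32 TPM (median 3.23) and tumors from 1.59 to 2.08 TPM (median 1.68). These ranges overlapped. The log2 fold change of -0.95 ± 0.23 had an adjusted p of 0.0028 but was just short of the size for a call, which it reached without peritumoral replicate 4 (-1.03) or 6 (-1.01).

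Cyp2e1, at chr7:140763739-140774987 on the plus strand, was the most abundant of the 10. Peritumoral liver held 3808 to 6681 TPM (median 5310) and tumors 985 to 2489 TPM (median 1888). The lowest liver library of all, at 2878 TPM, was above the highest tumor, and the log2 fold change against peritumoral liver was -1.67 ± 0.17 (adjusted p = 1.8e-07). The libraries of nonDEN-L-CD stood at 3398, 2878 and 3089 TPM, those of DEN-L-CD at 4364, 4648, 4027 and 4228 TPM and those of nonDEN-L-WD at 6172, 6264, 7184 and 5684 TPM. These 3 groups of whole liver did not overlap.

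Cyp1a2, at chr9:57676937-57683703 on the minus strand, is pericentral too but is also driven by the aryl hydrocarbon receptor. It ran from 106 to 229 TPM in peritumoral liver (median 165) and from 54.1 to 124 TPM in tumors (median 70.1). The log2 fold change was -1.29 ± 0.17 (adjusted p = 5.7e-06). One tumor, replicate 5, overlapped peritumoral liver at 124 TPM, where the other 5 reached at most 86.5 TPM. Without that tumor the log2 fold change was -1.45. On the western diet without DEN the libraries gave 181, 265, 260 and 190.0 TPM against 187, 155 and 190 TPM on the control diet, which overlapped.

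The Wnt feedback genes were present at a few TPM and moved in the same direction in tumors. Axin2, at chr11:108920349-108950783 on the plus strand, ran from 2.20 to 3.99 TPM in peritumoral liver (median 2.83) and from 1.10 to 2.55 TPM in tumors (median 1.57). Its log2 fold change was -0.92 ± 0.19 (adjusted p = 5.9e-04), short of the size for a call. Without the libraries rich in pancreas markers it was called (-1.01). Only tumor replicate 3, at 2.55 TPM, reached into the peritumoral range. Nkd1, at chr8:88521354-88594884 on the plus strand, was at 2.66 to 4.67 TPM (median 3.76) and 1.29 to 2.40 TPM (median 2.04), without overlap. Its log2 fold change of -1.03 ± 0.14 (adjusted p = 1.1e-05) was called, but it fell just short of the size for a call without tumor replicate 2 (-0.99), tumor replicate 5 (-0.92) or peritumoral replicate 6 (-0.96), and without the libraries rich in pancreas markers (-0.95). The call was also lost with limma on log2 TPM, at -0.66 with a pseudocount of 1 and -0.89 with 0.1.

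Lgr5, at chr10:115450311-115587780 on the minus strand, ran from 1.70 to 3.26 TPM in peritumoral liver (median 2.69) and from 0.87 to 1.37 TPM in tumors (median 1.13). The groups did not overlap, and the log2 fold change was -1.39 ± 0.17 (adjusted p = 2.8e-06). It was -0.73 and not a call with limma on log2(TPM + 1). Counts behind these levels were 137 to 250 in peritumoral liver and 54 to 106 in tumors. Tbx3, at chr5:119670669-119684724 on the plus strand, ran from 8.25 to 12.0 TPM (median 9.97) and from 3.72 to 6.31 TPM (median 4.49). All tumors were below all peritumoral libraries, with a log2 fold change of -1.22 ± 0.18 (adjusted p = 2.6e-05), which limma on log2(TPM + 1) put at -0.95, short of a call. In TPM, 2.05% of all tested genes lay in tumors wholly below peritumoral liver, as 7 of the 10 genes did.

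Set against western-diet liver without DEN, the tumors were lower for all 10 genes, and all 10 were called, where 5.24% of all tested genes were called lower. The tumor libraries serve in this comparison and in the ones around it, so the comparisons are not independent. The log2 fold changes ran from -1.08 ± 0.22 for Axin2 (adjusted p = 3.3e-04) to -2.75 ± 0.18 for Oat (adjusted p = 5.2e-10), with a median of -1.79. The lower bound of the list rested on single libraries: without nonDEN-L-WD replicate 2 the calls of Axin2 and Rhbg were lost, and without replicate 3 that of Axin2. With limma on log2 TPM, where the median of all tested genes was 0.30 higher in tumors with a pseudocount of 1, 7 of the 10 were called, and Axin2, Rhbg and Nkd1 were not. In TPM the tumor mean of Axin2 was 0.70 times that of nonDEN-L-WD, with overlapping ranges, a smaller difference than the fit gave.

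Set against control-diet liver without DEN, 5 of the 10 genes were called. Oat (-1.93 ± 0.19), Slc1a2 (-1.81 ± 0.16), Cyp1a2 (-1.72 ± 0.21), Tbx3 (-1.42 ± 0.23) and Cyp2e1 (-1.24 ± 0.20) were the calls, all lower in tumors, against 5.82% of all tested genes called lower. By adjusted p alone 7 of the 10 were lower, against 26.2% of all tested genes. With limma on log2 TPM, Cyp2e1 and Tbx3 were not called. Glul was lower by adjusted p but short of the size for a call, at -0.85 ± 0.18 (adjusted p = 3.2e-04). Rhbg at -0.62 ± 0.30 missed the threshold (adjusted p = 0.087). Lgr5 differed by -0.70 ± 0.22 (adjusted p = 0.0097) in counts scaled by TMM, but by 0.037 and 0.093 on TPM with a pseudocount of 1 or 0.1. With 1 library left out it ran from -1.01, a call, without nonDEN-L-CD replicate 2 to -0.45. Axin2 at -0.30 ± 0.25 (adjusted p = 0.32) and Nkd1 at -0.16 ± 0.19 (adjusted p = 0.51) also turned positive on TPM. The tumor levels of these 3 genes overlapped those of control-diet liver: for Axin2 the latter gave 1.76, 1.45 and 0.96 TPM, for Nkd1 1.81, 2.13 and 0.98 TPM, and for Lgr5 1.46, 0.62 and 1.20 TPM. With limma on log2(TPM + 1), which tested 12418 genes, the median over all tested genes was 0.12 between tumors and peritumoral liver and 0.38 between tumors and control-diet liver, where edgeR gave 0.01 and 0.02. The values of Axin2, Lgr5 and Nkd1 were below the median of all genes on either scale.

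**Figure D2:**
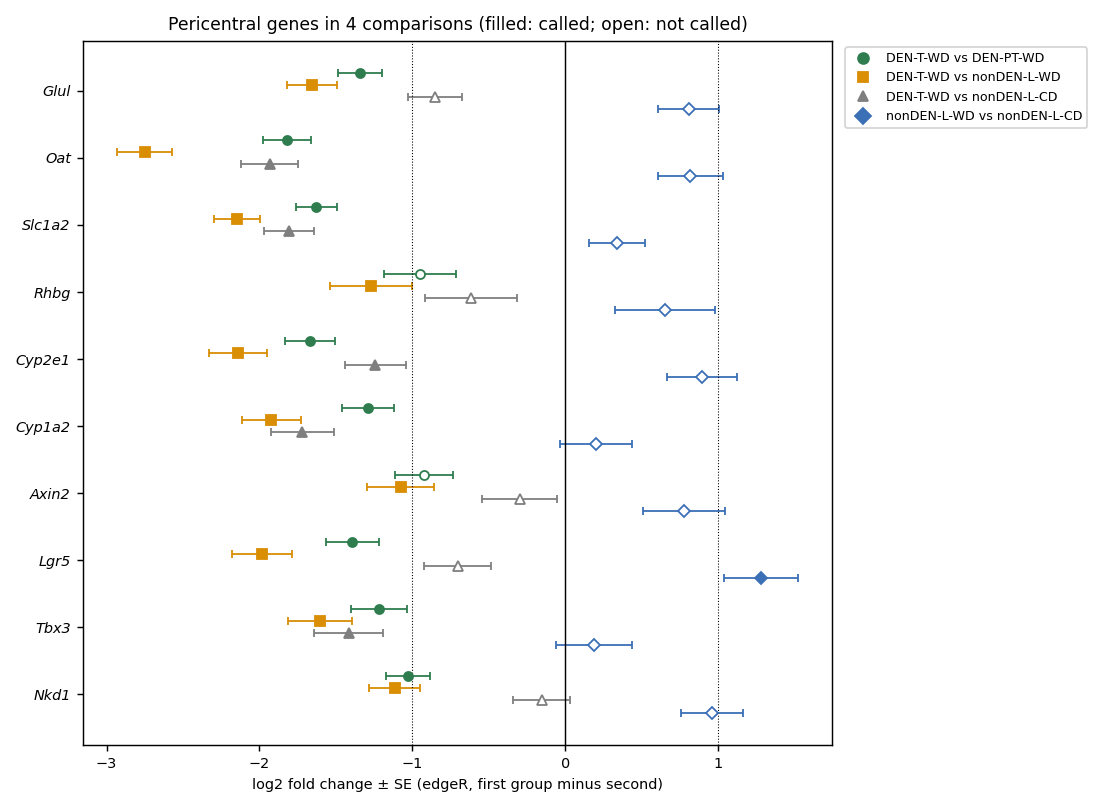
Log2 fold change (x axis, with bars of 1 SE) of each of the 10 genes (y axis) in 4 comparisons fitted with edgeR, with filled symbols for calls and dotted lines at a change of 1 either way. The tumor comparisons lie to the left of 0 for every gene, from -0.16 to -2.75 with TMM scaling, and the western-diet comparison lies to the right, from 0.19 to 1.28.

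Without DEN, the western diet went with higher levels of 6 of the 10 genes at an adjusted p of at most 0.05, where 11.2% of all tested genes were higher by this rule and 3.24% were called higher. The 6 were Lgr5 (1.28 ± 0.24, adjusted p = 6.8e-04, the one call), Nkd1 (0.96 ± 0.20, adjusted p = 0.0020), Cyp2e1 (0.90 ± 0.23, adjusted p = 0.0069), Oat (0.82 ± 0.21, adjusted p = 0.0083), Glul (0.81 ± 0.20, adjusted p = 0.0057) and Axin2 (0.78 ± 0.27, adjusted p = 0.039). Lgr5 rose from 1.46, 0.62 and 1.20 TPM to 3.02, 3.37, 3.68 and 3.49 TPM. Nkd1 gave 4.13, 3.69, 3.94 and 2.27 TPM on the western diet, all above its control-diet libraries. For Axin2 the western-diet libraries gave 2.20, 3.15, 3.43 and 0.74 TPM, and the last, replicate 4, was below every control-diet library. That library was also low for Tbx3, at 5.40 TPM against 13.5 to 14.6 TPM in the other 3, and its 8 pancreas markers summed to 1106 TPM. Among the 10 genes, calls numbered 1 with all libraries, 3 without nonDEN-L-WD replicate 4 or without nonDEN-L-CD replicate 1 (Lgr5, Axin2 and Nkd1 each time), 2 without nonDEN-L-WD replicate 2 (Lgr5 and Nkd1), and 4 without the 8 libraries rich in pancreas markers (Lgr5, Axin2, Nkd1 and Glul). Without nonDEN-L-CD replicate 2, which had the lowest Lgr5, Nkd1 was called and Lgr5 was not. Tbx3 (0.19 ± 0.25) and Cyp1a2 (0.20 ± 0.23) had the smallest differences, and their 95% intervals ran from -0.30 to 0.68 and from -0.26 to 0.66.

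On the control diet, DEN alone was followed by higher Lgr5 (0.95 ± 0.24, adjusted p = 0.0068) and Nkd1 (0.65 ± 0.20, adjusted p = 0.026), and none of the 10 genes was called by edgeR or by DESeq2. Over all tested genes, 2.76% were called higher there and 9.12% were higher by adjusted p alone. Lgr5 gave 2.17, 2.17, 2.39 and 2.54 TPM in DEN-L-CD, all above the control-diet libraries without DEN, and Nkd1 gave 2.17, 2.22, 2.71 and 3.29 TPM. Lgr5 was called without nonDEN-L-CD replicate 1 or 3, without the libraries rich in pancreas markers, or with limma on log2(TPM + 0.1). Neither gene passed the adjusted p without nonDEN-L-CD replicate 2, and Nkd1 did not pass without nonDEN-L-CD replicate 3, without DEN-L-CD replicate 3 or 4, or with limma. Unadjusted p-values under 0.05 were found for those 2 genes only.

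Peritumoral liver and whole DEN liver on the control diet, which differ in diet and in the neighbourhood of tumors, had none of the 10 genes at an adjusted p of at most 0.05, against 10.6% of all tested genes. Neither edgeR nor DESeq2's Wald test called any, where edgeR called 1.9% of all tested genes, and the unadjusted p was under 0.05 for Glul and Cyp1a2. With limma on log2 TPM, 3 genes passed that adjusted p without reaching the size for a call, namely Glul, Nkd1 and Tbx3, each higher in peritumoral liver. Without peritumoral replicate 6, Cyp1a2 passed in edgeR. The log2 fold changes ran from -0.46 ± 0.18 for Cyp1a2 to 0.35 ± 0.16 for Glul, with 95% intervals from -0.82 to -0.10 and from 0.04 to 0.66. In TPM, Glul and Tbx3 lay wholly higher in peritumoral liver, where 21.2% of all tested genes did so.

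Peritumoral liver was also set against western-diet liver without DEN. Oat (-0.93 ± 0.16), Cyp1a2 (-0.63 ± 0.18, adjusted p = 0.028), Lgr5 (-0.59 ± 0.18, adjusted p = 0.035) and Slc1a2 (-0.52 ± 0.14, adjusted p = 0.022) were lower in peritumoral liver, where 4.87% of all tested genes were lower by adjusted p. None was called, against 0.41% of all genes called lower, although Oat was called without nonDEN-L-WD replicate 2 or peritumoral replicate 6, without the libraries rich in pancreas markers, and with the replicate number as a block. Of these 4 genes at an adjusted p of at most 0.05, Oat alone passed without nonDEN-L-WD replicate 3 or 4. Lgr5 and Slc1a2 did not pass without nonDEN-L-WD replicate 1 or without the libraries rich in pancreas markers, nor Lgr5 and Cyp1a2 with limma on log2 TPM. Glul, Axin2 and Nkd1 stood at -0.31, -0.15 and -0.09 and missed the threshold.

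The change with diet in DEN-injected mice minus that in untreated mice was called for 2 of the 10 genes, both negative, where 1.18% of all tested genes were called negative. For Lgr5 this interaction was -1.54 ± 0.30 (adjusted p = 0.0034). For Oat it was -1.11 ± 0.27 (adjusted p = 0.013), a call that was lost without nonDEN-L-CD replicate 2 or nonDEN-L-WD replicate 3 and with limma on log2 TPM. Without the libraries rich in pancreas markers Axin2 was called as well, 3 in all. Diet went with a log2 change in Lgr5 of 1.28 without DEN and of -0.26 ± 0.18 with it, and in Oat of 0.82 without DEN and of -0.30 ± 0.17 with it. Peritumoral tissue of tumor-bearing liver was set against whole liver in the DEN arm, so diet and tissue type cannot be told apart there. Cyp2e1 at -0.89 ± 0.29 (adjusted p = 0.055) and Nkd1 at -0.74 ± 0.26 (adjusted p = 0.074) missed the threshold, but both passed the adjusted p with DESeq2, in a fit of these groups alone, and without nonDEN-L-CD replicate 1 or peritumoral replicate 6.

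The secreted and membrane parts of the pathway were read from lists of related genes. Of 16 Wnt ligands, R-spondins, receptors and secretion factors, 15 were tested, and 2 were called lower in tumors than in peritumoral liver, 7 lower by adjusted p and 1 higher, where 3.09% of all tested genes were called lower and 18.1% were lower and 19.5% higher by adjusted p. Rspo3, the R-spondin of central vein endothelium, ran from 4.15 to 6.14 TPM in peritumoral liver (median 5.33) and from 2.48 to 3.04 TPM in tumors (median 2.83), a log2 fold change of -1.02 ± 0.10 (adjusted p = 2.1e-07). Its call sat at the size threshold and was lost without tumor replicate 5, without peritumoral replicate 1 or 2, without the libraries rich in pancreas markers and with limma on log2 TPM. Rspo1 was the other call (-1.21 ± 0.38, adjusted p = 0.015), lost without the libraries rich in pancreas markers, with limma and in a fit of these 2 groups alone. Wnt2 (-0.83 ± 0.20, adjusted p = 0.0022) and Wnt9b (-0.60 ± 0.20, adjusted p = 0.025), the ligands of central endothelium, were lower by adjusted p. Wnt9b was at 0.17 to 0.67 TPM over all 25 libraries. The list of 6 endothelial markers had a median log2 fold change of -0.03 in the same comparison, with 1 higher and 1 lower by adjusted p, and its summed level was 129 to 159 TPM in tumors and 134 to 170 TPM in peritumoral liver. Its part in the ligand values was not tested.

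Other feedback genes of the pathway gave a mixed account. Of 9 on the list, 7 were tested, and 2 were called lower in tumors, against 3.09% of all tested genes. Sp5 (-1.22 ± 0.23, adjusted p = 2.1e-04) and Notum (-1.16 ± 0.13, adjusted p = 6.4e-07) were the calls, the first a transcription factor and the second a secreted Wnt deacylase. The call of Notum was lost with limma on log2 TPM and without the libraries rich in pancreas markers. Sp5 was not tested by limma, which took only genes with a mean of at least 1 TPM. Notum ran from 8.01 to 14.2 TPM in peritumoral liver and from 4.08 to 6.39 TPM in tumors, without overlap. Sp5 was scarce, at 0.52 to 0.87 TPM in peritumoral liver and 0.19 to 0.4 TPM in tumors. Znrf3 was lower by adjusted p (-0.41 ± 0.10) and Tcf7 was higher (0.47 ± 0.17, adjusted p = 0.029); both were named after their values were seen. Lef1, a TCF/LEF factor that active pathways induce, was too scarce to test, at 0 to 0.33 TPM in all libraries. The list's median was -0.41. Without DEN the western diet went with calls of higher Tnfrsf19 (2.89), Sp5 (1.05) and Rnf43 (1.04), 3 of 7 against 3.24% of all tested genes, of which the first and last were also named after their values were seen, and of which the calls of Sp5 and Rnf43 were lost without nonDEN-L-CD replicate 2 or 3, among other libraries. Of 9 secreted antagonists 5 were tested, and 1 was called lower in tumors, against 3.09% of all tested genes. It was Sfrp1 (-1.18 ± 0.35, adjusted p = 0.010), a call lost without peritumoral replicate 7 and with limma.

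None of the 14 genes of the beta-catenin complex was called between tumors and peritumoral liver, with 2 higher and 2 lower by adjusted p and a median of 0.01. These shares were no larger than those of all tested genes, 19.5% higher and 18.1% lower. Ctnnb1, which encodes beta-catenin, ran from 84.0 to 106 TPM in peritumoral liver (median 93.9) and from 117 to 140 TPM in tumors (median 128). That was a log2 fold change of 0.31 ± 0.06 (adjusted p = 3.0e-04). Csnk1a1 was also higher by adjusted p (0.15 ± 0.05), and Bcl9l (-0.54 ± 0.08) and Gsk3a (-0.17 ± 0.05) were lower, all 3 named after their values were seen. Levels of the transcript do not report the stability or sequence of the protein, which were not measured here.

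Genes that share the pericentral zone without being among the 10 were read as a list of 14. All 14 were tested, 7 were called lower in tumors and 11 were lower by adjusted p, with none higher and a median of -1.13, against 3.09% called lower and 18.1% lower by adjusted p over all tested genes. Without the libraries rich in pancreas markers, 7 were called lower and 9 were lower by adjusted p. The 3 called with the largest change were Cyp2c37 (-2.003 ± 0.36, adjusted p = 1.4e-04), Cyp2c29 (-1.99 ± 0.24, adjusted p = 1.7e-06), both xenobiotic cytochromes, and Cyp7a1 (-1.68 ± 0.29, adjusted p = 1.0e-04), the rate-limiting enzyme of bile acid synthesis. On the western diet without DEN, 6 of the 14 were called higher and 8 were higher by adjusted p, with a median of 0.80, against 3.24% and 11.2% of all tested genes. Without the libraries rich in pancreas markers the counts were 4 and 5.

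Periportal genes come from the other end of the lobule. Of 14, 2 were called lower, 1 called higher, 10 lower by adjusted p and 2 higher, with a median of -0.83. Over all tested genes 3.09% were called lower and 4.81% higher, and 18.1% were lower and 19.5% higher by adjusted p. Without tumor replicate 5, 6 were called lower, and without the libraries rich in pancreas markers 7 were lower by adjusted p and 3 higher. G6pc (-1.38 ± 0.27, adjusted p = 3.5e-04), which releases glucose, and Pigr (-1.10 ± 0.11, adjusted p = 3.1e-07), a receptor for secreted antibodies, were the calls downward. Cdh1, the epithelial cadherin, was the call upward (1.78 ± 0.31, adjusted p = 1.2e-04), with 32.1 to 61.1 TPM in tumors and 4.35 to 23.1 TPM in peritumoral liver. The urea cycle genes Cps1 (-0.78), Ass1 (-0.95) and Asl (-0.98) and the histidine enzyme Hal (-0.61 ± 0.14) were lower by adjusted p, and all but Hal were named after their values were seen. With the western diet without DEN the periportal median was -0.27, and 1 of 14 was called, higher, against 3.24% of all tested genes.

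**Figure D3:**
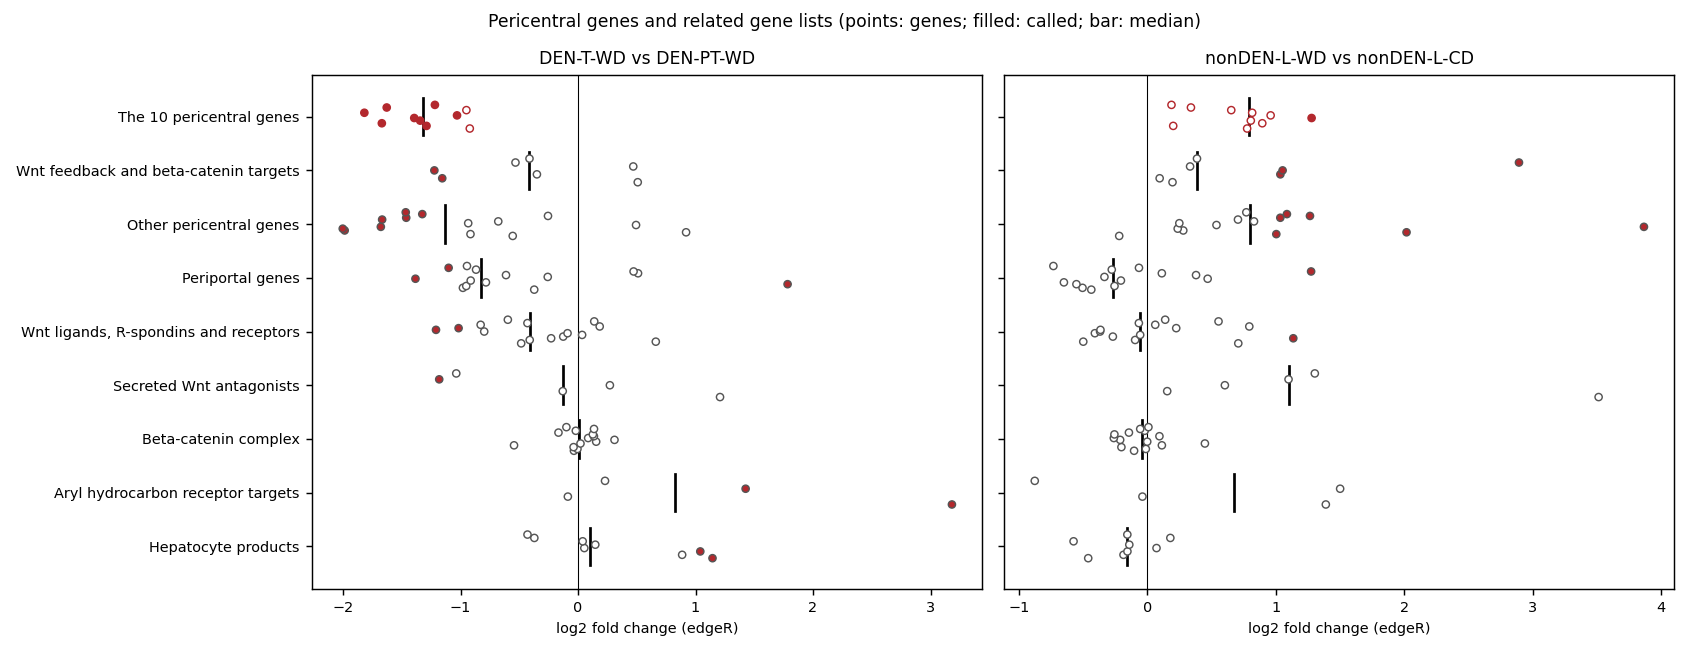
Log2 fold change (x axis, edgeR) of each tested gene in the 10 pericentral genes and 8 related lists, for tumors against peritumoral liver and for western against control diet without DEN, with calls filled and the list median as a bar. Both pericentral rows sit left of 0 in tumors (medians -1.32 and -1.13) and right of 0 on the western diet (0.79 and 0.80), while the periportal row is left of 0 in tumors (-0.83) and near it on the diet (-0.27).

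Hepatocyte products outside the zones did not fall as a list. Of 8, 2 were called higher in tumors, Ahsg (1.14 ± 0.25, adjusted p = 9.7e-04) and Apoa1 (1.04 ± 0.24, adjusted p = 0.0017), and the median was 0.10, where 4.81% of all tested genes were called higher. By adjusted p alone 3 were higher and 1 lower, where 19.5% of all tested genes were higher. Without tumor replicate 5, 3 were called higher. Neither Ahsg nor Apoa1 was called without the libraries rich in pancreas markers. Alb was higher by adjusted p (0.89 ± 0.24, adjusted p = 0.0062), from 23227 to 48642 TPM in peritumoral liver and from 82845 to 99736 TPM in 5 tumors, with replicate 5 at 21879 TPM. Of the 5 bile duct markers, 2 were called higher in tumors, against 4.81% of all tested genes. Spp1 (1.97 ± 0.27, adjusted p = 8.9e-06) and Sox9 (1.38 ± 0.22, adjusted p = 4.6e-05) were those calls and were named after their values were seen, and the list's summed level was 385 to 833 TPM there and 72.7 to 324.5 TPM in peritumoral liver. Leukocyte markers summed to 70.9 to 156 TPM in tumors and 89.4 to 181 TPM in peritumoral liver, and those of stellate cells and fibroblasts to 185 to 244 TPM and 227 to 419 TPM. No marker of these lists was at 0 throughout a group, and their part in the levels of the 10 genes was not tested.

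Ratios within a library set a pericentral gene against its periportal counterpart, which cancels a change that both share. Glul to Gls2 pairs the enzyme that makes glutamine with the one that splits it. The ratio was 2.70 to 12.3 in peritumoral liver (median 7.38) and 1.92 to 4.11 in tumors (median 3.37), a log2 difference of -1.20. This was larger than the spread between libraries (exact permutation test, two-sided, p = 0.0040, adjusted over 14 comparisons to 0.033). It no longer passed the adjustment without tumor replicate 1 or 5, at -1.17 and -1.06. The peritumoral group overlapped only through replicate 7, at 2.70, where Gls2 stood at 249.96 TPM. Against nonDEN-L-WD, whose libraries ran from 6.19 to 12.1, the difference was -1.38 (exact permutation p = 0.0048, adjusted 0.033, the smallest p that these group sizes allow). Against nonDEN-L-CD it was -0.25 (exact permutation p = 0.43, adjusted 0.64). The 3 control-diet libraries without DEN ran from 3.15 to 4.71, of which 2 lay within the tumor range and 1 above it.

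Cyp2e1 to Cyp2f2 pairs a pericentral with a periportal cytochrome, and it did not separate tumors from peritumoral liver. It ran from 9.49 to 15.97 in peritumoral liver (median 10.97), and the tumor median was also 10.97. In 5 tumors it ran from 10.1 to 13.6, inside the peritumoral range, and in replicate 5 it was 1.16. The log2 difference was -0.49 (exact permutation p = 0.45, adjusted 0.64), and without replicate 5 it was 0.06. Cyp2e1 and Cyp2f2 were both lower in tumors by edgeR, the second by -0.91 ± 0.29 (adjusted p = 0.014). Cyp2f2 stood at 848 TPM in replicate 5 and at 120 to 213 TPM in the other 5 tumors. With the western diet without DEN both ratios were higher without overlap between groups, by a log2 of 1.13 for Glul to Gls2 and 1.09 for Cyp2e1 to Cyp2f2. Each had the smallest p that 4 against 3 libraries allow (exact permutation p = 0.029, adjusted 0.085), which did not pass the adjustment over 14 comparisons.

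**Figure D4:**
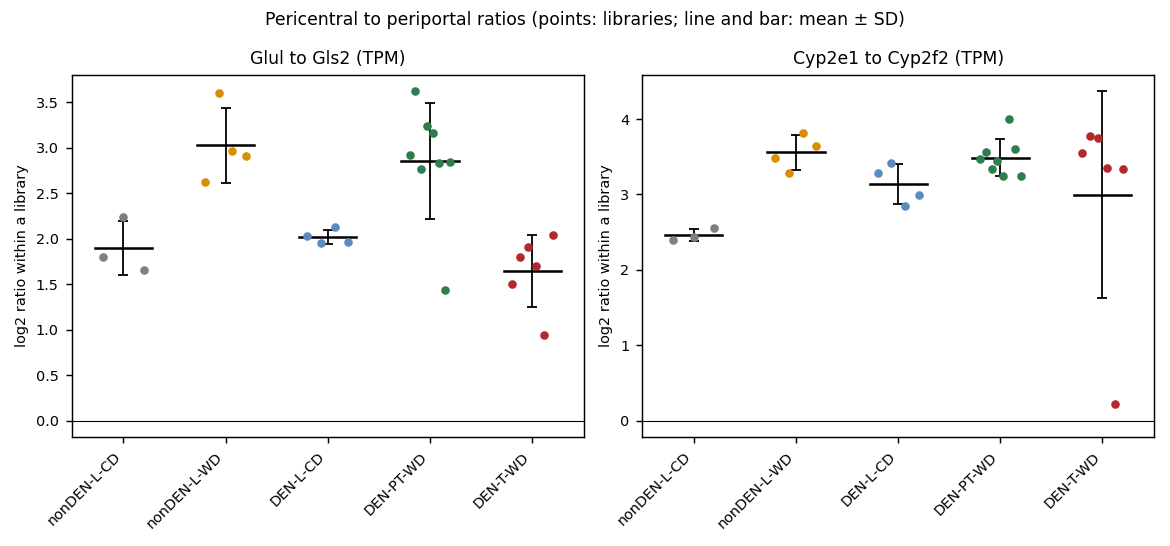
Log2 ratio of TPM within each library (y axis) of Glul to Gls2 and of Cyp2e1 to Cyp2f2 by group, with libraries as points and the mean ± SD as a line and bar. The first ratio averages 2.85 in peritumoral liver and 1.65 in tumors, and in the second 5 tumors sit with peritumoral liver while replicate 5 is alone at 0.22.

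Tumor replicate 5 had the lowest Glul (230.5 TPM), Oat (118 TPM), Slc1a2 (12.9 TPM), Cyp2e1 (985 TPM), Tbx3 (3.72 TPM) and Nkd1 (1.29 TPM) of the tumors and the highest Cyp1a2. The aryl hydrocarbon receptor target Cyp1a1 stood at 33.6 TPM in it and at 0.65 TPM or less in the other 5 tumors, and the target Nqo1 at 151 TPM. Cyp1a1 and Nqo1 were the only 2 of 4 tested receptor targets called higher in tumors, against 4.81% of all tested genes, at 3.18 and 1.43, and without replicate 5 they stood at -0.51 and 0.51, with neither called. The receptor gene Ahr was itself lower in tumors by adjusted p (-0.56 ± 0.14). Its ranges were 8.67 to 11.5 TPM in tumors and 10.7 to 15.4 TPM in peritumoral liver. Of the 10 genes, 7 were called without replicate 5 and 8 with it, the one lost being Nkd1.

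Correlations of log2(TPM + 1) with Glul were computed for the other 9 genes in peritumoral liver (n = 8) and in tumors (n = 6), 18 in all. In tumors, Cyp2e1 followed Glul with Pearson r = 0.98 (exact permutation p = 0.0028, adjusted 0.05) and Spearman rho = 0.94 (exact permutation p = 0.017, adjusted 0.30). Without the 2 tumors farthest from the Glul median r was 0.90. Nkd1 had r = 0.94 in tumors (exact permutation p = 0.011, adjusted 0.10), rho = 0.77 (exact permutation p = 0.10, adjusted 0.41), and r = 0.92 without those 2 tumors. Slc1a2 had r = 0.78 (exact permutation p = 0.035, adjusted 0.21) and rho = 0.77 (exact permutation p = 0.10, adjusted 0.41), and its r of 0.28 without those 2 tumors left a relation that rested on them. For Cyp1a2 and Rhbg r was -0.63 and -0.68 in tumors, neither past the threshold. In peritumoral liver the highest were Nkd1 (r = 0.64, exact permutation p = 0.075, adjusted 0.28) and Cyp2e1 (r = 0.63, exact permutation p = 0.10, adjusted 0.28), 8 of 9 were positive, and none passed.

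Across all 25 libraries, with each group's mean of log2 CPM removed, the gene whose pattern was most like that of Glul was Bmp2, a secreted signal made in liver mainly by endothelium, with r = 0.94. Next were Stk40 (0.90), Nceh1 (0.89), Zfp982 (0.87) and Rspo3 (0.86). These values describe likeness over libraries that share depth scaling and tissue makeup, and they were the highest of 15625 genes, so no p is given. Without tumor replicate 5, r was 0.90 for Bmp2 and 0.87 for Rspo3. In separate groups, r of Rspo3 with Glul was 0.98 in nonDEN-L-WD, 0.90 in peritumoral liver and 0.95 in tumors, but -0.72 in DEN-L-CD, from 4 libraries. Of the other 9 pericentral genes, Cyp2e1 came closest (r = 0.67, rank 162) and then Nkd1 (0.59, rank 468), while Cyp1a2 stood at 0.02.

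**Figure D5:**
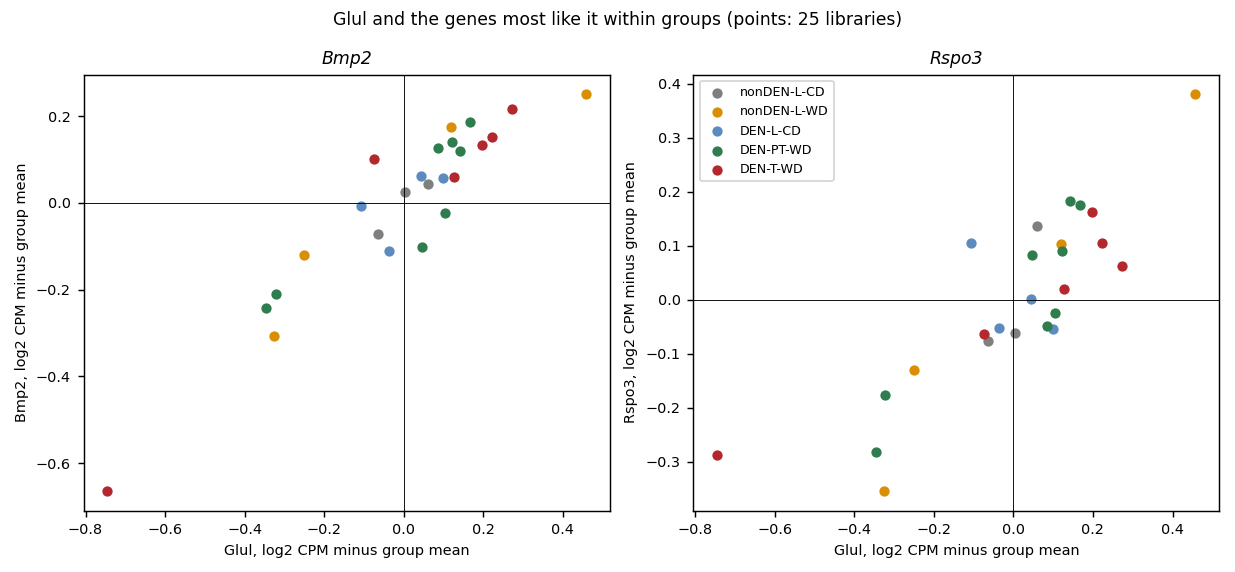
Deviation of log2 CPM from the group mean for Glul (x axis) against Bmp2 and Rspo3 (y axes) in the 25 libraries, coloured by group. Points rise from lower left to upper right (r = 0.94 and 0.86), with tumor replicate 5 at the far left.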

How the data were processed

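The 25 libraries were made from polyadenylated RNA with a KAPA mRNA HyperPrep kit and sequenced single-end. Per the study's methods and processing notes, the authors checked reads with FastQC, aligned them with STAR and counted them with RSEM on GRCm38. The annotation release, the strand setting and which STAR and RSEM versions were run are not given in the sources used here. The deposited expected counts (estimated reads per gene) were rounded to whole numbers for testing. The deposited TPM values, scaled by the authors for length and depth, gave the levels, and the deposited FPKM values were not used. Groups followed the labels. The 10 genes and the related lists were chosen with earlier results of these data known. A periportal list gene counted in its list is not reported by name here.

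After TMM scaling, counts went into the quasi-likelihood F test of edgeR 4.0.16, run under R 4.3.3 (filterByExpr with a minimum count of 10, 1 fit over all 25 libraries). A call needed a Benjamini-Hochberg adjusted p of at most 0.05 over 15625 genes and a log2 fold change of 1 or more either way. SE is the log2 fold change divided by the square root of F, and 95% intervals are 1.96 SE either way. Named genes were the 10, up to 3 calls each way per list between tumors and peritumoral liver, the 5 genes most like Glul over the libraries, and 13 list genes whatever their values. Other genes named are said to have been named after their values were seen. Ratios were tested by exact permutation over libraries. Alternatives were DESeq2 1.42.0, its size factors, no count filter, only the groups compared, replicate number as a block, limma 3.58.1 on log2(TPM + 1) or log2(TPM + 0.1), and each library left out. Limma took only genes with a mean of at least 1 TPM, and a call on a gene below that counts as lost with limma. Leaving out the 8 libraries with 500 TPM or more of pancreas markers was added after seeing the data. The edgeR step was tested on simulated data for tumors against peritumoral liver (15316 genes) and recovered 200 of 200 changed genes with 0 others called. For western against control diet without DEN (15327 genes) it recovered 200 of 200 with 3 others called. The planted changes were larger than that of any of the 10 genes in either comparison. Genes with few counts were given none, and all genes had the same dispersion. The recovery therefore does not speak for changes near the size for a call.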

Additional observations from a re-analysis of the deposited data

Results flagged for a closer look

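Within the groups of 4 to 8 libraries, 4 of 48 checks found a library far from the rest of its group, where chance gives about 1 in 20. Axin2 in peritumoral liver replicate 5 stood at 3.99 TPM against 2.20 to 2.98 TPM in the other 7. Tbx3 in nonDEN-L-WD replicate 4 stood at 5.40 TPM against 13.5 to 14.6 TPM in the other 3, a library whose pancreas markers summed to 1106 TPM. The log2 ratio of Glul to Gls2 was 1.43 in peritumoral liver replicate 7 against 2.77 to 3.62 in the others. The log2 ratio of Cyp2e1 to Cyp2f2 was 0.22 in tumor replicate 5 against 3.34 to 3.77 in the other 5 tumors.

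The effect of the western diet differed between DEN-injected and untreated mice for 2 of the 10 genes by a test of the difference itself (edgeR). For Oat the difference was -1.11 on the log2 scale, and for Lgr5 -1.54. Over all tested genes, 1.18% were called negative in this test. The call of Oat was lost without either of 2 libraries and with limma on log2 TPM. The DEN arm set peritumoral liver against whole liver, so diet and tissue type cannot be told apart there.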

How the results depend on the processing

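The number of the 10 genes called was the same in all 8 comparisons with DESeq2's test, with its size factors, without a count filter and with only the groups compared. It changed as follows. With limma on log2(TPM + 1), calls between tumors and peritumoral liver fell from 8 to 5 (without Lgr5, Nkd1 and Tbx3; to 7, without Nkd1, with a pseudocount of 0.1), against nonDEN-L-WD from 10 to 7 (also 7 with 0.1), against nonDEN-L-CD from 5 to 3 (also 3 with 0.1), the diet calls went from 1 to 2 (3 with 0.1), and the interaction from 2 to 1 (also 1 with 0.1). DEN on the control diet went from 0 to 1 with a pseudocount of 0.1. Without the libraries rich in pancreas markers, peritumoral against nonDEN-L-WD liver went from 0 to 1, diet to 4, DEN to 1 and the interaction from 2 to 3, and between tumors and peritumoral liver Axin2 replaced Nkd1 among the 8. With the replicate number as a block, peritumoral against nonDEN-L-WD liver went from 0 to 1 (Oat), and no other count changed. Deviations of same-numbered tumor and peritumoral libraries correlated from -0.23 to 0.34. Such values cannot tell whether these libraries share a mouse, and the main fit treated them as unpaired.

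Leaving out 1 library gave 0 to 1 calls for peritumoral against nonDEN-L-WD liver and for DEN, 1 to 3 for diet and 1 to 2 for the interaction. The log2 ratio of Glul to Gls2 in tumors ran from -1.41 to -1.06 against peritumoral liver, losing its call without tumor replicate 1 or 5, and from -1.51 to -1.19 against nonDEN-L-WD, where the smallest p possible with 1 library less did not pass the adjustment. Peritumoral liver ran from 0.72 to 1.04 against DEN-L-CD, past the threshold without peritumoral replicate 7. It ran from -0.31 to 0.030 against nonDEN-L-WD, turning to 0.030 without peritumoral replicate 7 and to 0.019 without nonDEN-L-WD replicate 2. For Cyp2e1 to Cyp2f2 the ranges were -0.65 to 0.064 in tumors against peritumoral liver and -0.16 to 0.018 in peritumoral against nonDEN-L-WD liver. On log2 CPM, r with Glul in tumors was 0.59 for Lgr5 (-0.39 on TPM) and 0.97 for Nkd1, which then passed.

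These log2 fold changes turned sign. With limma at pseudocounts of 1 and 0.1, tumors against nonDEN-L-CD gave 0.15 and 0.23 for Axin2, 0.037 and 0.093 for Lgr5 and 0.18 and 0.28 for Nkd1. Peritumoral against nonDEN-L-WD liver gave 0.27 and 0.43 for Axin2 and 0.062 and 0.082 for Nkd1, and against DEN-L-CD 0.081 and 0.099 for Lgr5. In the latter, Rhbg gave -0.014 with DESeq2, -0.015 with its size factors, -0.0040 without a filter, -0.038 with the block and -0.029 without the libraries rich in pancreas markers. Cyp2e1 gave -0.014 with DESeq2 and with its size factors, -0.0081 without a filter and -0.20 without those libraries. Their values with 1 library left out ran from -0.11 to 0.23 and from -0.058 to 0.057. Also with 1 library left out, Axin2 in peritumoral against nonDEN-L-WD liver ran from -0.40 to 0.019, Tbx3 with diet from -0.060 to 0.47, Cyp1a2 with DEN from -0.093 to 0.086 and the interaction of Tbx3 from -0.19 to 0.35. That interaction was -0.39 without the libraries rich in pancreas markers. None of these turned values was past the threshold, and the cause of the changes was not tested. Depth limits Rhbg, Axin2, Lgr5 and Nkd1, which had as few as 34.8 to 53 counts in a library.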
